A study of Homo sapiens with 2 samples.

Results

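The genes described here encode the N6-methyladenosine (m6A) writer complex and the m6A demethylases, and the measurement is the methylation of their own transcripts. They were chosen by name: METTL3, METTL14, WTAP, VIRMA, RBM15, RBM15B, ZC3H13, CBLL1, ALKBH5 and FTO, which are 10 of the 11406 gene names in the site lists. Their entries made up 175 of 72449 listed sites in replicate 1 and 181 of 81554 in replicate 2. Both libraries came from poly(A) RNA of wild-type HEK293T cells, an established human embryonic kidney line, labelled day 0 and GLORI+, with 100 to 200 ng of mRNA in each. In GLORI, glyoxal and nitrite deaminate unmethylated adenosine to inosine, which is read as G, while m6A is still read as A. The level of a site is the percentage of its A and G reads that show A. The design has 1 group and no untreated or unmethylated control, so replicates, sites and genes could be compared, and conditions could not. Separate cultures are not stated in the labels. The p-values set the difference between these libraries against read sampling alone, and such a difference may reflect technical variation.

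m6A is placed on nascent RNA in the nucleus, mostly within a short consensus with GAC or AAC at its core, and it marks transcripts for splicing, export, translation and decay through reader proteins. METTL3 and METTL14 form the catalytic dimer, and a set of adaptors holds the dimer in nuclear speckles and directs it to RNA. ALKBH5 and FTO are iron-dependent dioxygenases that remove the methyl group.

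The sequence around listed sites could be read where a site fell in the RefSeq promoter table (build GRCh38.p14, 250 bases before to 50 after a start site), which held 9 of the 10 genes. Of all sites of these genes, 1 lay in such a window: position 18183858 of chromosome 17 (plus strand), 30 nt downstream of the annotated start of ALKBH5. A pair of sites listed under no gene name lay in the same window, upstream of the start, on the same strand. The surroundings of these sites are shown 5′ to 3′ because they are the listed sites in the ALKBH5 window. The 4 capitals mark the 2 bases before the listed adenosine, the adenosine itself and the base after it.
ALKBH5, chr17:18183844-18183872: agcggcgctggcGGACgtcgggctggctg
unnamed, chr17:18183697-18183725: gggaggggcggcGGACggcaagcggttcc
unnamed, chr17:18183636-18183664: ggcgcggcgtgaAGACaggttgctatttg
The site named ALKBH5 and the nearer unnamed site both read GGAC at this place, and the farther one read AGAC. Over all shared sites in the promoter windows, read on the strand of the site, the listed base was an adenosine at 1051 of 1051, was followed by C (the motif AC) at 50.05% and read GGAC at 20.6%. Among the 207 shared sites past the first 5 nt downstream of a start, AC stood at 62.3% and GGAC at 35.7% (95% Wilson interval 29.5 to 42.5). Among the 395 shared sites before a start, AC stood at 73.7% and GGAC at 33.4% (28.9 to 38.2). The remaining shared sites of the windows, in the first 5 nt from a start, are not shown apart. Both shares were lower there than in the total, since both subsets lay above it. The named ALKBH5 site had 10.4% in replicate 1 and 12.8% in replicate 2 (125 reads in each), the weakest shared site of the gene. The unnamed site at 18183711 had 40.7% (27 reads) and 50% (32 reads), and that at 18183650 was listed in replicate 2 only, at 14.3% (49 reads).

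Sites of the 10 genes were listed again in the other replicate in most cases. A site counted as shared when both lists gave it at an identical position and strand. Of the replicate 1 sites of these genes 157 were shared (89.7%, 95% Wilson interval 84.3 to 93.4), against 83.5% of all replicate 1 sites. Of the replicate 2 sites the same 157 were 86.7% (81.03 to 90.9), against 74.1%. Median coverage of the listed sites was 73 and 81 reads in these genes and 40 and 42 reads over all genes, so they were more deeply covered than most, and the part of depth in the higher shares was not tested. RBM15 had 45 and 44 sites in the respective lists, RBM15B 36 and 38, WTAP 23 and 25, ALKBH5 22 and 19, VIRMA 16 and 21, CBLL1 12 and 14. FTO had 9 and 6, METTL14 5 and 4, METTL3 3 and 4, and ZC3H13 4 and 6. In METTL14, ALKBH5 and FTO every replicate 2 site was shared, and in METTL3 and CBLL1 every replicate 1 site. ZC3H13 had the lowest share, 3 of 7 sites listed in either. The 18 sites listed in replicate 1 only had a median level of 19.5% and the 24 listed in replicate 2 only 24.9%. Each of the 42 had a level under 30% or fewer than 30 reads.

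**Figure D1:**
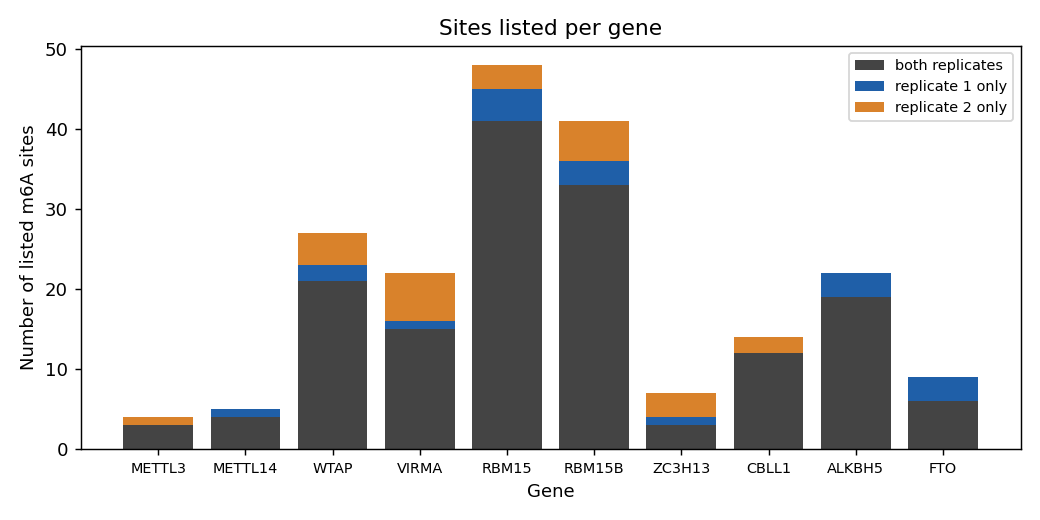
Number of listed m6A sites per gene (vertical axis), stacked by whether both replicates or a single replicate listed them. RBM15 and RBM15B had 41 and 33 shared sites, and METTL3 and ZC3H13 had 3 each.

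Levels at the shared sites were mostly close in the replicates. Fisher's exact test, two-sided, run on the reads of each of the 60462 shared sites with Benjamini-Hochberg adjustment, called 0 of the 157 sites of these genes, and 0% of all sites. At an unadjusted p under 0.05 there were 2 of 157 (1.27%), against 3.06% of all shared sites. These were position 94511486 of chromosome 8 in VIRMA (61.5% and 83.6%, Fisher's exact p = 0.0160, adjusted p = 1) and position 110341153 of chromosome 1 in RBM15 (75% and 65.6%, Fisher's exact p = 0.0485, adjusted p = 1). The median absolute difference was 3.61 percentage points in these genes and 4.95 over all sites. The largest was 28.75 points in these genes, at 159748891 of WTAP (16 and 35 reads), and 55.6 over all sites. The level was higher in replicate 2 at 76 sites, higher in replicate 1 at 80 and equal at 1. The mean chi-square of the difference was 0.803 here and 0.931 over all shared sites, where sampling of reads alone gives about 1 if sites are not selected. A shared site had to pass the listing limits in both libraries, which leaves out sites where the libraries differ and can lower this value. The 0 calls do not show that the libraries are equal, since thinly covered sites can hide a difference. The libraries were counted as 1 sample, so levels carry a counting standard error (SE) and no SD.

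**Figure D2:**
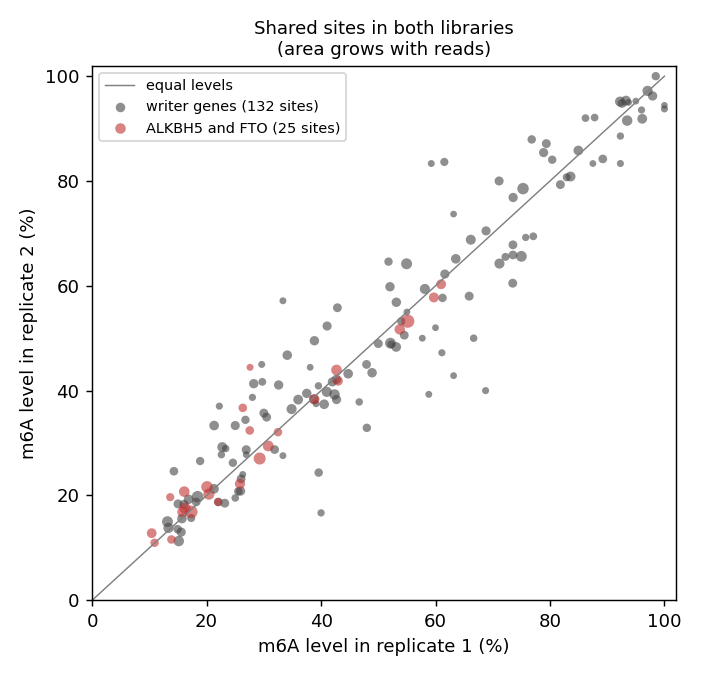
Level of each shared site in replicate 1 (horizontal) and replicate 2 (vertical), in percent; point area grows with reads and the line marks equal levels. The 157 sites scatter around the line, and the sites of ALKBH5 and FTO all lie at or under 60.6% on average.

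Each gene was then tested over all its shared sites. An exact conditional test, two-sided, with sites as strata called 0 of the 10 genes and 0% of 9521 genes at a Benjamini-Hochberg adjusted p of 0.05. At an unadjusted p under 0.05 it counted 0 of 10 against 3.96% of all genes. The largest differences in mean level, replicate 2 minus replicate 1, were -9.37 points in METTL14 (SE 6.83, exact p = 0.0822), -8.36 in ZC3H13 (SE 6.61, exact p = 0.371) and 6.30 in FTO (SE 3.66, exact p = 0.150). All 3 genes have few sites. In the 4 genes with the most sites the differences were small: 0.985 points in RBM15 (SE 1.03), 0.607 in RBM15B (SE 1.32), 0.878 in WTAP (SE 2.13) and -0.493 in ALKBH5 (SE 1.13).

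Set beside all 9521 genes with a shared site, these genes had more sites in the median and levels near the median. The median number of shared sites was 13.5 per gene, against 4 over all genes, and the median of the mean levels was 47.9%, against 46.6%. At single sites the median was 42.4% over 157 sites, against 44.9% over 56106 sites of named genes. Sites of at least 80% were 17.2% of theirs (95% Wilson interval 12.1 to 23.9) and 20.1% of all, and sites under 20% were 13.4% (8.92 to 19.6) and 15.2%. The numbers of sites were spread widely. As many shared sites as RBM15, or more, were found in 0.326% of genes, as many as RBM15B in 0.819%, as WTAP in 3.89%, as ALKBH5 in 5.18% and as VIRMA in 9.18%. For METTL3 and ZC3H13 the share was 61.3%, for METTL14 50.6%, for FTO 35.6% and for CBLL1 14.01%.

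**Figure D3:**
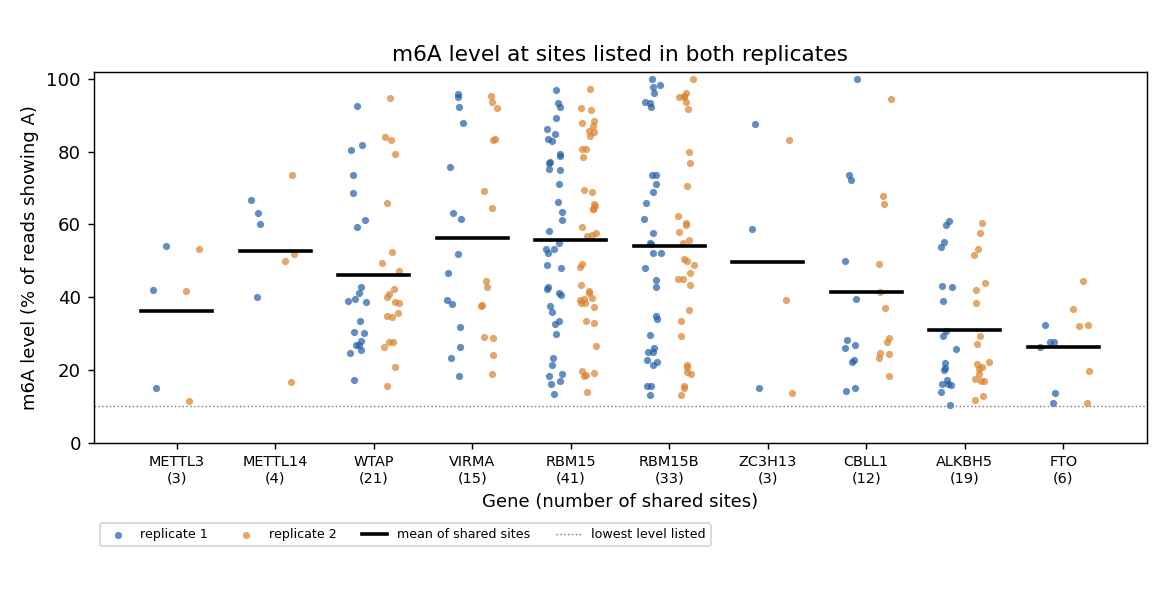
Level of each shared site in both replicates (vertical axis, percent of reads showing A) for the 10 genes, with the number of shared sites in parentheses; the black line is the mean over shared sites and the dotted line the lowest listed level, 10%. Averaged over the replicates, site levels span 13.6% to 97.1% in RBM15, 14.1% to 99.2% in RBM15B and 10.9% to 36.02% in FTO. Points of a single replicate can lie outside these ranges, as in FTO, where 1 reaches 44.4% in replicate 2.

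In the catalytic dimer few sites were listed. METTL3, the subunit that binds S-adenosylmethionine and transfers the methyl group, lies at 21498138 to 21511340 of chromosome 14 (minus strand, GRCh38.p14) and had 3 shared sites. The site at 21499514, 1376 nt before the annotated gene end, had 54.0% in replicate 1 (50 reads) and 53.2% in replicate 2 (62 reads). The others lay 48 nt apart in the middle of the gene: 21503348 had 42.0% and 41.7% (81 and 108 reads) and 21503300 had 15.1% and 11.3% (152 and 186 reads). The 3 sites kept this order in both libraries, and their 95% Wilson intervals on summed reads show the weakest site apart from the rest, at 9.84 to 17.02 against 35.0 to 48.9 and 44.4 to 62.5. Their mean was 36.2% ± 2.1 (counting SE), against a median of 40.05% for genes in the same decile of listed gene coverage.

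METTL14, the partner that supports RNA binding and is itself without catalytic activity, lies at 118685392 to 118715430 of chromosome 4 (plus strand). Its 4 shared sites fell within 953 nt, 4391 to 5343 nt before the gene end, and coverage was thin, at 15 to 40 reads. Position 118711039 had the highest level, with 63.2% in replicate 1 and 73.7% in replicate 2 (19 reads in each). Position 118710113 had 66.7% and 50% (30 and 40 reads) and 118710087 had 60% and 52% (15 and 25 reads). Position 118710468 was lowest at 40% and 16.7% (30 reads in each; Fisher's exact p = 0.0840, adjusted p = 1). The other sites changed order between the libraries, and 118710468 came last in both. The mean was 52.8% ± 3.4, and the median of its coverage decile, the lowest, was 58.6%.

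WTAP, the adaptor that brings the dimer to nuclear speckles, lies at 159726693 to 159756319 of chromosome 6 (plus strand) and had 21 shared sites at a mean of 46.2% ± 1.1. Taking sites with gaps of at most 1000 nt as 1 group, they formed 2 groups in the last part of the gene. The upstream group, 21647 to 22452 nt from the gene start, held 11 shared sites with a median of 40.2%, and the downstream group, 742 to 1139 nt before the gene end, held 10 with a median of 40.5%. The strongest site, 159755543, had 92.6% and 94.8% (81 and 77 reads). The weakest, 159755413 in the same group, had 17.3% and 15.7% (52 and 51 reads). The most covered, 159755279, had 38.7% and 38.3% (111 and 133 reads). The downstream group thus held both extremes of the gene, strong and weak in both libraries alike.

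VIRMA, the largest subunit and a scaffold of the complex, lies at 94487689 to 94553469 of chromosome 8 (minus strand) and had 15 shared sites at a mean of 56.4% ± 1.4. All but 1 of its shared sites fell in 3 groups in the middle of the gene, and none lay in the first 26502 nt or the last 18925 nt. A group of 3 shared sites within 32 nt had levels of 72.5% to 95.1%, the highest at 94519179 with 95% and 95.2% (20 and 21 reads). The group upstream of it, 642 nt long, held 5 shared sites between 38.3% and 94.8%. Downstream, a group 1216 nt long, its far end set by a site of replicate 2 only, held 6 shared sites with a median of 35.8%. The weakest shared site of the gene, 94506614, stood alone with 18.2% and 18.8% (66 and 80 reads). The most covered, 94511592, had 31.9% and 28.8% (69 and 80 reads). Coverage was low: with at least 30 reads in both libraries 7 of the 15 sites were left, and with at least 50 reads 4. The mean level was 48.3% over the 7 sites and 44.9% over the 4.

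ZC3H13, a zinc finger protein that keeps the complex in the nucleus, lies at 45954465 to 46052746 of chromosome 13 (minus strand). Its 3 shared sites were far apart and ran from weak to strong toward the gene end. Position 45988958 had 14.9% and 13.6% (67 and 59 reads), 45969347 had 58.8% and 39.3% (17 and 28 reads), and 45957142, which is 2677 nt before the end, had 87.5% and 83.3% (16 and 24 reads). The first was low and the last high in both libraries. The mean of 49.6% ± 3.3 rests on the thinly covered sites: with at least 30 reads in both libraries only the weakest site was left.

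CBLL1, also called HAKAI, a RING-type ubiquitin ligase, lies at 107744142 to 107761667 of chromosome 7 (plus strand) and had 12 shared sites at a mean of 41.4% ± 1.2, all in the last 3442 nt of the gene. Of these, 11 lay within 909 nt and 1 stood 605 nt before the end, at 22.2% and 37.0% (27 reads in each). The strongest, 107758244, had 100% and 94.4% (17 and 18 reads) and the weakest, 107758792, had 15% and 18.4% (80 and 87 reads). The most covered, 107758917, had 28.2% and 41.3% (85 and 121 reads; Fisher's exact p = 0.0571, adjusted p = 1). The median site level of 30.8% lay well under the mean, since 3 sites were at 68.9%, 70.7% and 97.2% and the other 9 were under 50%.

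RBM15 and RBM15B are paralogous RNA-binding adaptors that recruit the complex to uridine-rich stretches and both genes hold most of their coding sequence in a single long exon. RBM15 lies at 110339377 to 110346677 of chromosome 1 (plus strand) and RBM15B at 51391285 to 51397908 of chromosome 3 (plus strand). In RBM15, 40 of 41 shared sites fell within 2630 nt from 216 nt after the gene start, a density of 15.2 shared sites per kb. In RBM15B all 33 fell within 3334 nt from 137 nt after the start, at 9.90 per kb. Their means were 55.8% ± 0.52 and 54.2% ± 0.66, a difference of 1.58 points with a 95% counting interval of -0.0670 to 3.22.

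**Figure D4:**
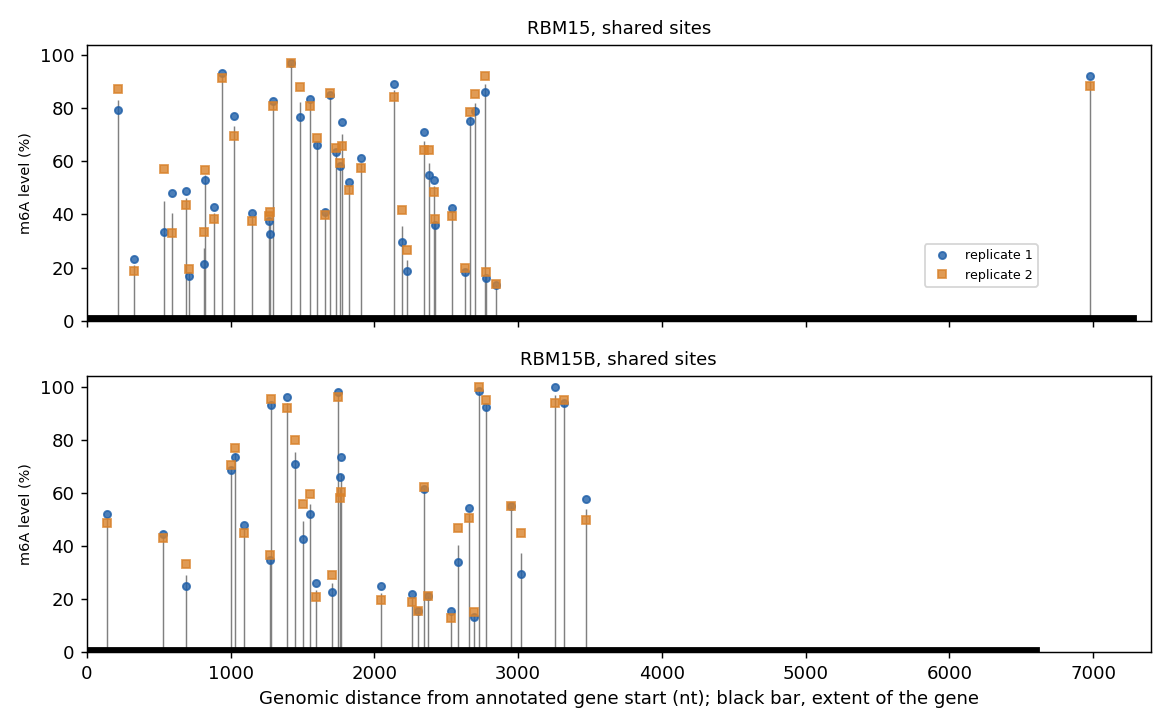
Level of each shared site (vertical axis, percent) of RBM15 and RBM15B by genomic distance from the annotated gene start in nt; grey lines reach the mean of the replicates and the black bar is the extent of the gene. Sites crowd into the first 2845 nt of RBM15, apart from 1 site at 6981 nt, and the first 3470 nt of RBM15B.

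Strong and weak sites were interspersed in both paralogs. In RBM15, 11 sites were at or above 80% and 4 under 20%, and in RBM15B 7 and 3. The strongest site of RBM15, 110340794, had 97.1% and 97.2% (136 and 178 reads), and the weakest, 110342222, had 13.3% and 13.8% (135 and 174 reads). The most covered, 110342008, had 18.4% and 19.7% (266 and 304 reads). The only shared site listed under RBM15 near its end, 110346358, had 92.3% and 88.6% (26 and 35 reads). A site of replicate 1 only stood in the same 47 nt, and unnamed sites past the gene end are given further below. In RBM15B the strongest, 51394013, had 98.5% and 100% (66 and 55 reads). The site 35 nt upstream of it, 51393978, was both the weakest and the most covered, with 13.2% and 15% (190 and 220 reads). Each of these levels differed by less than 4 points between the libraries.

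Some close neighbours had unlike levels. Among the 10 genes 11 adjacent pairs of shared sites lay at most 15 nt apart, and in 6 the 95% Wilson intervals on summed reads did not overlap. In RBM15B, 51392556 had a mean level of 35.7% (30.5 to 41.4) and 51392562, 6 nt on, had 94.3% (91.00 to 96.6). In RBM15, 110342143 had 89.1% (81.3 to 94.8) and 110342152, 9 nt on, had 17.2% (12.4 to 23.5). Levels 6 nt apart were close at 110340642 and 110340648 of RBM15, with 38.5% and 36.8%. The same reads can cover both sites of a pair, so the intervals are not independent. Intervals also narrow with more reads, so deeply covered pairs separate more readily. The share of such pairs over all genes was not analysed here, so the count is not a trait particular to these genes.

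Positions in the main groups of RBM15 and RBM15B were counted by their distance from the gene start in steps of 3 nt, as a description with no test. Of the 40 sites of the RBM15 group, 24 lay at a multiple of 3 nt from the gene start, 5 at 1 nt more and 11 at 2 nt more. In RBM15B the numbers were 3, 12 and 18. Median levels in RBM15 were 59.1%, 59.6% and 45.2% in these classes, and in RBM15B 69.7%, 49.5% and 49.9%. Distances between adjacent shared sites of 4 to 30 nt were multiples of 3 in 5 of 8 cases in RBM15, in 2 of 5 in RBM15B, in 11 of 27 cases over the 10 genes (40.7%, 95% Wilson interval 24.5 to 59.3), and in 39.6% of 10450 cases over all named genes. How many adenosines of each gene stand in each class was not analysed here.

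The demethylase genes had the lowest mean levels of the 10. ALKBH5 lies at 18183828 to 18209954 of chromosome 17 (plus strand) and had 19 shared sites at 30.9% ± 0.56, with 50 to 524 reads a site. It was the only one of the 10 with a listed site in the first 100 nt: 13 shared sites lay 30 to 1175 nt downstream of it, and 6 lay in the last 1708 nt of the gene. Levels in the first group rose from the weakly methylated GGAC shown above, and from 13.8% and 11.6% at 18184005 (65 and 69 reads), to 53.8% and 51.7% at 18184269 (160 and 178 reads). They peaked with 59.7% and 57.8% at 18184431 (139 and 135 reads), while 18184390, 41 nt before it, had 16.1% and 20.7% (174 and 193 reads). Near the gene end, the most covered site, 18208420, had 55.1% and 53.2% (437 and 524 reads), and the strongest, 18209820, which is 134 nt before the end, had 61.0% and 60.3% (123 and 136 reads). No ALKBH5 site had a mean level above 60.6%, and 6 were under 20%.

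**Figure D5:**
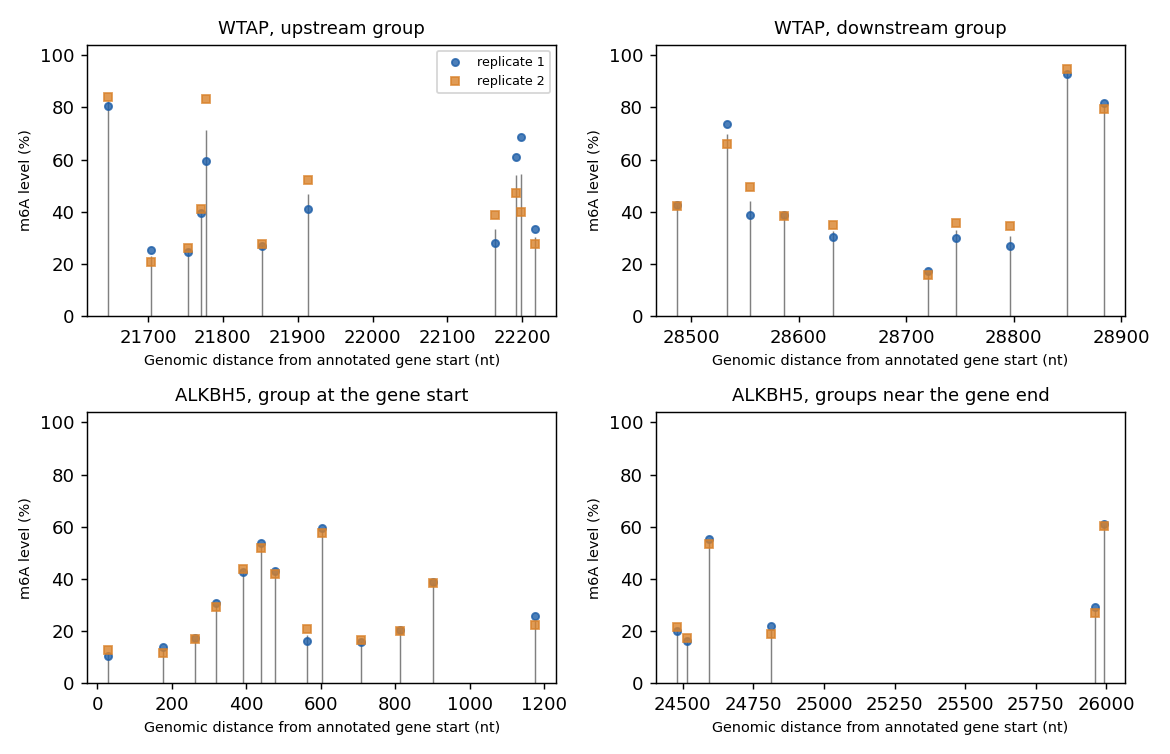
Level of each shared site (vertical axis, percent) of WTAP and ALKBH5 in both replicates by genomic distance from the annotated gene start in nt, with grey lines to the mean of the replicates. Averaged over the replicates, WTAP sites reach 93.7% in its downstream group, and ALKBH5 sites reach 58.7% at the gene start and 60.6% near the end.

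FTO, the other demethylase, which also acts on the methylated cap-adjacent adenosine, lies at 53703963 to 54121941 of chromosome 16 (plus strand) and had 6 shared sites at 26.2% ± 1.8. They formed 2 groups far apart. In the upstream group, 122019 to 122490 nt from the gene start, position 53825982 had 27.5% and 32.4% (69 and 71 reads). Position 53826069 had 26.3% and 36.7% (57 and 79 reads), and 53826171 had 32.5% and 32.1% (77 and 53 reads). Position 53826208 had 27.6% and 44.4% (29 and 18 reads). These 4 levels lay close together, at means of 29.97% to 36.02%. In the downstream group, 54111869 had 10.9% and 11.0% (55 and 73 reads) and 54111882, 13 nt on, had 13.6% and 19.7% (44 and 61 reads), both near the lowest listed level. None of the last 9679 nt of the gene held a listed site.

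The order of the mean levels was VIRMA, RBM15, RBM15B, METTL14, ZC3H13, WTAP, CBLL1, METTL3, ALKBH5 and FTO. Neighbours down to WTAP did not differ beyond counting error. The steps from WTAP to CBLL1 (4.85 points, 95% counting interval 1.74 to 7.95), CBLL1 to METTL3 (5.15, 0.464 to 9.84), METTL3 to ALKBH5 (5.30, 1.07 to 9.53) and ALKBH5 to FTO (4.69, 0.939 to 8.45) had intervals above 0. Over sites, the median was 49.2% for the 132 sites of the 8 writer genes and 28.2% for the 25 sites of the demethylase genes. RBM15 and RBM15B gave 41 and 33 of the former and ALKBH5 19 of the latter, so a few genes weigh most. By gene, the median site level was 24.0% in ALKBH5, 30.7% in FTO and 30.8% in CBLL1, and at least 40.2% in the other writer genes. Sites of at least 80% were 27 of 132 and 0 of 25. The latter allows a share of up to 13.3% (95% Wilson), if sites of a gene are taken as independent. With at least 50 reads in both libraries the medians were 45.2% over 88 sites and 28.2% over 23. The order of the genes depended in part on thinly covered sites, at both ends. With at least 30 reads in both libraries ZC3H13 was lowest (14.2%, 1 site), under FTO (24.3%) and ALKBH5 (30.9%). VIRMA, first in the order above, fell to 48.3% with at least 30 reads and 44.9% with at least 50. RBM15 was highest at both settings (54.3% and 53.3%). With levels weighted by reads METTL3 (28.6%) was under ALKBH5 (31.3%).

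Depth differed between these genes and bears on such comparisons, because a listed site had at least 15 reads and 5 A reads, so that at 15 reads no level under 33.3% can be listed. Median coverage of shared sites was 174 and 193 reads in ALKBH5, but 24.5 and 27.5 in METTL14. Set beside genes in the same coverage decile, ALKBH5 was close to the median in level, with 30.9% against a median of 31.02%, and had 19 sites against 2. FTO had 26.2% against 46.4%, and 6 sites against 5. RBM15 was above its decile in both, with 55.8% against 37.5% and 41 sites against 4, as was RBM15B with 54.2% against 44.3% and 33 sites against 5. VIRMA had 56.4% against 48.6%, CBLL1 41.4% against 48.6% and WTAP 46.2% against 46.4%. The VIRMA mean rests in part on thinly covered sites and was 48.3% with at least 30 reads in both libraries.

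The conversion of adenosine that the authors list for each gene was lowest in RBM15, RBM15B and WTAP, which had the most sites, though not in ALKBH5, the next in number. How the authors computed this conversion and the gene coverage behind the deciles is not stated, and the conversion may include methylated adenosines. RBM15 had 93.9% in replicate 1 and 93.8% in replicate 2, and only 1.67% and 1.31% of 9794 genes were lower. RBM15B had 95.05% and 94.96%, and WTAP 95.6% and 95.8%. ALKBH5, with 19 shared sites, had 97.3% and 97.4%, above CBLL1 (96.2% and 96.4%, 12 sites) and VIRMA (96.99% and 97.3%, 15 sites). FTO had 98.1% in both libraries and METTL3 98.05% and 98.06%, above the median of all genes at 97.6%. The part of conversion in the number of sites, or of the sites in the listed conversion, was not tested.

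Of 17 other genes of the m6A pathway (separate methyltransferases, readers and the S-adenosylmethionine synthetase gene MAT2A), 12 had a shared site, with 93 sites in all. The exact conditional test called 0 of these 12 between the replicates after adjustment, against 0% of all 9521 genes. At an unadjusted p under 0.05 it counted 1 of the 12, against 3.96% of all genes. Their median was 5.5 shared sites per gene and their median level 60.2%. METTL5 and TRMT112, partners that methylate ribosomal RNA, had no entry in either list. As a limited check of the cell line, 6 genes were chosen for embryonic kidney cells with epithelial and neural genes (VIM, KRT8, KRT18, NEFL, NEFM and PAX2). Of these, 5 had an entry in replicate 1, 5 in replicate 2 and all 6 in at least 1 list, but only 4 had a shared site. Of 5 markers of blood, liver, fibroblasts and endothelium, 0 had an entry in either list. A gene without a listed site may still be expressed.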

How the data were processed

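The members and gene lists were chosen with earlier results of these data known. The authors deposited 1 site list per replicate; per the file headers it holds counts (A plus G reads, A reads), their ratio as a fraction, a conversion fraction and a coverage signal per gene, and raw and adjusted p-values. The fraction matched the counts within 5e-06. GRCh38, STAR, Bowtie, SAMtools and Trim Galore 0.6.6 appear in the submitters' processing notes. Site caller, settings and molecular identifiers: not given in the sources used here. Smallest listed values were 15 reads, 5 A reads and a level of 10%. Listed sites held 5221660 reads in replicate 1 and 6306522 in replicate 2, which is not the depth of the libraries.

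Sites were joined by chromosome, position and strand. Gene levels are means over shared sites of the average of both libraries; their SE and all intervals cover counting error only. Fisher's exact test per site and an exact conditional test per gene, both from SciPy 1.17.1 and tested on simulated data, were adjusted over all sites or genes at 0.05. Text names all 10 genes; in each, the highest, lowest and most covered shared site, all where there were at most 6, and others chosen after their values were seen. Gene extents (10 of 10 matched) and sequences are RefSeq's, GRCh38.p14. The consensus motif and transcript region of each site need a genome and were not analysed here.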

Additional observations from a re-analysis of the deposited data

Results flagged for a closer look

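Sites listed under no gene name, and so outside the comparisons above, stood beside 2 of the 10 genes on the strand of the gene. After the annotated end of RBM15, 10 unnamed sites were listed in both replicates, 170 to 969 nt past it, with levels of 13.9% to 76.3% in replicate 1 and 18.9% to 80.4% in replicate 2 (17 to 51 reads), and 5 more in replicate 2 only. The strongest, position 110347398 of chromosome 1, had 76.3% and 80.4% (38 and 51 reads). Within RBM15, 1 unnamed site at 110343569 was listed in both, with 44.4% and 36.7% (18 and 30 reads). Before the start of ALKBH5, 2 unnamed sites were listed in both: 18183711, shown above, and 18183556, which is 272 nt upstream, with 62.1% and 54.8% (58 and 73 reads). The transcripts that hold these sites were not analysed here.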

How the results depend on the processing

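The median of the mean levels, 47.9%, became 40.1% with at least 30 reads in both replicates and 36.2% with at least 50. It was 42.2% when weighted by reads and 50.2% with levels of at least 20%. It was 41.7% without replicate 1 and 45.5% without replicate 2. These last values cover all sites listed in the remaining replicate, unshared ones included, so they are not a replicate difference over the same sites. The number of shared sites, 157, ranged from 111 with at least 50 reads to 199 when either list sufficed, with 175 and 181 in the single replicates. The tests between replicates called 0 sites and 0 genes at every setting run, among them a chi-square test per site and Fisher's exact test on summed reads. METTL14 had no shared site with at least 50 reads. ZC3H13 moved most, from 49.6% to 14.2% at 30 reads. Without a replicate no test between replicates remains. The motif and region alternatives were not run, since they need a genome. No paired analysis was possible because there is 1 group. With unnamed shared sites added, an alternative chosen after seeing the data, 170 sites were counted.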

Other observations

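On the strand opposite to the 10 genes, within their extent or 2000 nt of it, 16 sites were listed beside 4 of them, 9 of these in both replicates. Before the start of RBM15 there were 7, all unnamed. At the start of WTAP there were 4 unnamed sites and 1 of SOD2. Beside RBM15B there were 3 of DCAF1. Within the extent of RBM15B, 1 site of DCAF1 was listed at 51395950 of chromosome 3, with 36.4% in replicate 1 and 39.02% in replicate 2 (22 and 41 reads). Upstream of CBLL1, a minus-strand site named LOC101927974 at 107743027 of chromosome 7 showed A in all reads of both libraries (100% of 15 and of 17). At the start of WTAP, the unnamed minus-strand site 159726838 had 81.0% and 88.9% (21 and 18 reads), while no WTAP site was listed within 21647 nt of that start.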
